A study of Mus musculus with 69 samples.

Results

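The mRNAs of the mitochondrial ribosomal proteins were examined in T cells of mice that carried all or few alleles of Stat5a and Stat5b, the paralogous transcription factors that act downstream of IL-7 and IL-15. Members were the genes whose symbol is Mrps or Mrpl followed by a number and at most one letter, and 77 of the 24309 genes in the CD4+ and CD8+ count tables met that rule, 29 named for the small and 48 for the large subunit. The same 77 were among the 24311 genes of the retroviral table. One of them, Mrps36, is a mitoribosomal protein by name only, since its product is now known as a component of the 2-oxoglutarate dehydrogenase complex.

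Poly(A)+ RNA-seq was performed on wild type (WT), AAB (Stat5a-/- Stat5b+/-, with 1 remaining Stat5b allele) and BBA (Stat5a+/- Stat5b-/-, with 1 remaining Stat5a allele) adult mice of both sexes. These are germline deficiencies, so every cell of the animal and not just the T cell lacked the alleles. CD8+ T cells pooled from lymph nodes and spleen were sorted as naive (Tnv), central memory (Tcm) or effector memory (Tem) by surface markers, and CD4+ cells as Tnv. Libraries came either from cells that received no cytokine (NC) or from cells cultured for 12 to 16 h with IL-7 or IL-15. NC libraries differ from the others in culture history as well as in cytokine by one of the accounts given, so culture and cytokine cannot be told apart. The retroviral libraries (RV) were labelled AAB CD8+ T cells, a label that their markers did not match, as given below. By the published methods, their cells were stimulated through CD3 and CD28. They were then given a retroviral vector for constitutively active STAT5A (CA-STAT5A) or an empty one. Cells with either vector were next cultured with IL-2, which the paper calls a potent STAT5 stimulus. Of 69 samples, 67 were assigned to 32 groups of 2 or 3 libraries, with 48 CD8+, 15 CD4+ and 4 RV libraries. Libraries of a group are biological replicates from separate mice by the study design, but the labels tie no library to a named animal.

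Mitochondrial ribosomes translate the few proteins encoded by mitochondrial DNA, all of which are core subunits of oxidative phosphorylation complexes. Their proteins are encoded in the nucleus, made in the cytosol and imported, and some descend from bacterial ribosomal proteins while others are particular to mitochondria. T cells depend on mitochondrial translation when they are stimulated and grow, and memory CD8+ T cells are known for their reliance on mitochondrial respiration. The mitochondrially encoded mRNAs themselves were not analysed here.

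Promoter sequence was matched for 68 of the 77 members, with 74 windows of 250 bases before to 50 bases after an annotated start (RefSeq, GRCm38.p6). None was matched for Mrpl4, Mrpl13, Mrpl15, Mrpl19, Mrpl38, Mrpl54, Mrps28, Mrps34 and Mrps35. Windows were searched on both strands for the letters GCGCATGCG (NRF1, a factor known to act on nuclear genes for mitochondrial proteins), CCGGAAGT (ETS, the family of GABPA), AAGATGGC (YY1), CACGTG (E-box, bound by MYC and related factors) and TTCNNNGAA (GAS, the motif of STAT factors). The NRF1 letters were in 9.46% of member windows and 1.75% of all 32851 windows of the same length, the ETS letters in 16.2% and 3.89%, and the YY1 letters in 16.2% and 2.75%. E-box letters were in 9.46% of member windows and 7.15% of all windows, and GAS letters in 8.11% and 8.3%. The E-box share counts Mrpl2 more than once, through windows that overlap, and by gene the letters were in 5 of 68 members. These motifs do not overlap one another in the windows printed here. A match describes letters and is not a binding site. The windows that follow belong to members that were higher in WT than in BBA Tcm with IL-15. Mrps18b, Mrpl12 and Mrps7 had the largest differences among those with a window and no named pseudogene, and Mrps27 and Mrps22 were chosen, with their values known, because each carries 2 motifs. Capitals mark the motif letters on either strand.
Mrps18b promoter, chr17:35916391-35916690, minus strand: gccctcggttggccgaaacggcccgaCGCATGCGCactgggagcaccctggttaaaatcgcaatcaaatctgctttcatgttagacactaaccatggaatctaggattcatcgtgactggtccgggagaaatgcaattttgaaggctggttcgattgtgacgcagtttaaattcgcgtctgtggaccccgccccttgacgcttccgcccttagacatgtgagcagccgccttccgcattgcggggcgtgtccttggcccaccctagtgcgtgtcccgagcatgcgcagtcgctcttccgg
Mrpl12 promoter, chr11:120484387-120484686, plus strand: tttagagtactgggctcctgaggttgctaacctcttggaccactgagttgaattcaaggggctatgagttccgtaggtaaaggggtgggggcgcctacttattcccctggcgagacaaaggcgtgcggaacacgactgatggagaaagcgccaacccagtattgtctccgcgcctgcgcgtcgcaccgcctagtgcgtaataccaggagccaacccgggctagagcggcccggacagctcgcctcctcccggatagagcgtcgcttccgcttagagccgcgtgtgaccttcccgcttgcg
Mrps7 promoter, chr11:115603890-115604189, plus strand: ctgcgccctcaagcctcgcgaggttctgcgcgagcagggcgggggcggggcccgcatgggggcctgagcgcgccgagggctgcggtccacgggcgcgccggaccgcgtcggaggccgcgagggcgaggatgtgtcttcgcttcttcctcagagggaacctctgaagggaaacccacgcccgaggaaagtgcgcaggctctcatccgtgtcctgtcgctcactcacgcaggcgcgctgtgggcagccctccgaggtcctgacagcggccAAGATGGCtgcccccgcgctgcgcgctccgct
Mrps27 promoter, chr13:99344536-99344835, plus strand: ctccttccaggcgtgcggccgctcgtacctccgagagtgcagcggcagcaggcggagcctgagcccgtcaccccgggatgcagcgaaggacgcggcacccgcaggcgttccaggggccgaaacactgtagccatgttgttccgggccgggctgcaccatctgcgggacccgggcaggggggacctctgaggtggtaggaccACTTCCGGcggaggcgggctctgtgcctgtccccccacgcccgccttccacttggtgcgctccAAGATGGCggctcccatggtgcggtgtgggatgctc
Mrps22 promoter, chr9:98601630-98601929, minus strand: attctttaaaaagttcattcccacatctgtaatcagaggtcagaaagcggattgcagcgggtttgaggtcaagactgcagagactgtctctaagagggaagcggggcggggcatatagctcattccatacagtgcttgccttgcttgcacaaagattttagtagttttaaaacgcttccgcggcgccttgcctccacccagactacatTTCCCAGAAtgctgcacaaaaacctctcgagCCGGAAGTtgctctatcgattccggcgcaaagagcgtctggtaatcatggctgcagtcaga
Counted from the start, the NRF1 letters of Mrps18b lie at -224 to -216, the YY1 letters of Mrps7 at 19 to 26, and the ETS and YY1 letters of Mrps27 at -49 to -42 and 15 to 22. Mrps22 holds ETS letters at -11 to -4 and GAS letters at -42 to -34. The window of Mrpl12 holds none of the 5 motifs.

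Total gene counts ran from 5926139 to 25612758 in CD8+, 6705004 to 34118295 in CD4+ and 11020965 to 16516525 in RV libraries, and members took 0.204 to 0.298%, 0.189 to 0.217% and 0.21 to 0.225% of them. Thus every library held between 13192 and 68642 reads from members. Levels are CPM, each count divided by the library total and set to one common total, after normalisation by the trimmed mean of M-values (TMM), and mean levels are averages of log2(CPM + 1). In CD8+ libraries Stat5a was at 32.5 to 108 CPM in WT, 0.968 to 4.90 in AAB and 35.2 to 49.8 in BBA, and Stat5b at 164 to 353, 78.6 to 141 and 48.9 to 94.1. Both Stat5b alleles are deleted in BBA by label, yet reads from Stat5b remained there. One library stood apart by its markers, WT Tnv with IL-15 replicate 2, with Cd4 at 237 CPM against at most 11.9 in the other CD8+ libraries and with the lowest Cd8a (698 CPM). Xist, expressed in female cells, was at 2.21 and 5.33 CPM in WT Tnv with IL-7 and at 948 and 1075 in WT Tnv NC, so sex and cytokine changed together there. In Tcm with IL-7, Xist was at 811 in AAB replicate 1 and 724 in BBA replicate 1, and between 1.74 and 2.70 in the other 4 libraries.

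Members were all moderately expressed and each passed the count filter in every fit, so none is left out of the counts below. Over the 16 WT CD8+ libraries their mean levels ran from 9.20 CPM (Mrps6) to 114 CPM (Mrps25), with a median of 30.2. Per kilobase of exon, levels were highest for Mrpl52 (77.2 CPM per kb ± 31.9, SD), Mrpl33 (72.9 ± 21.7) and Mrps21 (71.8 ± 20.3), whose differences from one another were smaller than their spread over libraries. Mrpl17 (3.16 ± 0.639), Mrpl47 (3.19 ± 0.626) and Mrpl1 (3.72 ± 0.477) were lowest on the same scale. Exons of 32 members overlap exons of another gene, 8 on the same strand and 27 on the opposite one, and since no strand setting is given, reads of these genes cannot be separated from those of their neighbours. Among genes named below these are Mrps6 (Slc5a3), Mrps25 (Nr2c2 on the opposite strand), Mrps7, Mrps18b, Mrps18c, Mrps26, Mrps27, Mrps34, Mrpl3, Mrpl10, Mrpl12, Mrpl14, Mrpl27, Mrpl33, Mrpl36, Mrpl44 and Mrpl47. Named pseudogenes exist for Mrps36, Mrpl23 and Mrpl48, whose values are therefore uncertain.

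The mean level over the 77 members differed most between genotypes in Tcm. With IL-15, the 2 WT Tcm libraries were at 5.13 and 4.996, the AAB libraries at 4.88 and 4.82 and the BBA libraries at 4.64 and 4.59, so the groups did not overlap. With IL-7, WT Tcm were at 5.32 and 5.02, AAB at 4.88 and 4.95 and BBA at 4.80 and 4.80, again without overlap between WT and the others. WT Tcm NC libraries were far apart, at 5.15 and 4.82, and the lower of them was below both AAB libraries (4.94 and 4.85) and level with the higher BBA library (4.82 and 4.69). In Tnv and Tem the genotypes were closer. Tnv NC had means of 4.79 ± 0.0405 in WT, 4.80 ± 0.0493 in AAB and 4.71 ± 0.0993 in BBA (SD, n = 2 each), and Tem NC had 4.79 ± 0.102, 4.72 ± 0.196 and 4.72 ± 0.159. In the same order, Tnv with IL-7 had 4.76 ± 0.029, 4.86 ± 0.2397 and 4.70 ± 0.1385. Tnv with IL-15 had 4.80 ± 0.103, 4.72 ± 0.0647 and 4.74 ± 0.1919. Tem with IL-15 had 4.77 ± 0.125 in WT, 4.75 ± 0.199 in AAB and 4.56 ± 0.0186 in BBA. Both WT libraries lay above both BBA libraries there, while the AAB values (4.89 and 4.61) spanned those of WT. CD4+ Tnv with IL-7 had 4.55 ± 0.0248 in WT (n = 3), 4.57 ± 0.0621 in AAB (n = 2) and 4.46 ± 0.0632 in BBA (n = 3), with 1 BBA library inside the WT range.

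**Figure D1:**
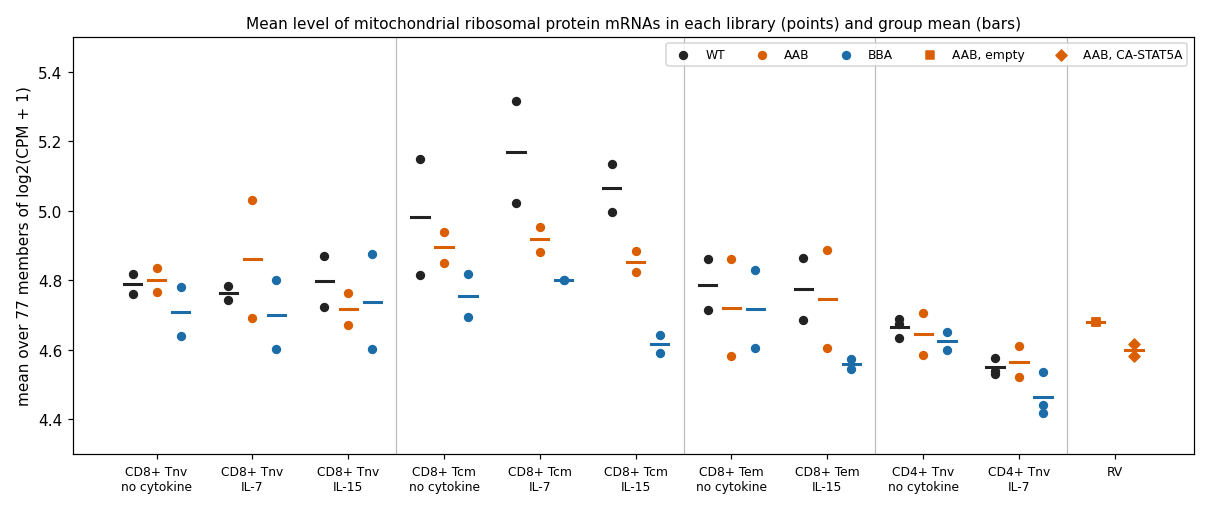
Mean log2(CPM + 1) over the 77 members in each library (points, y axis) by lineage, state and cytokine (x axis), with group means as short bars, WT in black, AAB in orange and BBA in blue, and RV libraries as squares (empty vector) and diamonds (CA-STAT5A). In Tcm with IL-15 the 3 genotypes sit apart, from 5.13 in the highest WT to 4.59 in the lowest BBA library, and in Tnv the genotypes overlap.

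Between WT and BBA, Tcm cultured with IL-15 was the condition with the most members called different of the 10 compared. Differentially expressed genes (DEGs) were those over 1.5-fold with an adjusted p under 0.05, where adjusted p comes from the quasi-likelihood F test of edgeR, adjusted over all genes tested by the Benjamini-Hochberg method. There were 22 members among DEGs higher in WT, against a background of 11.8% of all 9944 genes tested, and 0 among DEGs lower in WT, against 11.7%. Log2 fold changes of WT over BBA were positive for 69 members and ran from -0.42 to 1.22, with a median of 0.38 against -0.02 over all genes tested. By adjusted p alone 38 members were higher (19.9% of all genes) and 1, Mrpl27, was lower (19.1%).

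Among small subunit members, DEGs were 6 of 16 of bacterial type and 4 of 10 particular to mitochondria. Mrps28, the mitochondrial counterpart of bacterial S1 (chr3:8802146-8923918, minus strand, GENCODE on GRCm38), was at 19.0 and 18.0 CPM in WT, 13.4 and 12.1 in AAB and 7.06 and 8.73 in BBA. The 3 genotypes did not overlap, and WT exceeded BBA by a log2 fold change of 1.22 (SE 0.18, edgeR adjusted p = 0.00219), a 2.34-fold difference. Mrps18b, one of 3 paralogs of bacterial S18 (chr17:35910379-35916389, minus strand), was at 54.9 and 45.7 CPM in WT, 37.2 and 35.7 in AAB and 23.8 and 23.8 in BBA. Its log2 fold change was 1.08 (SE 0.12, edgeR adjusted p = 9.14e-04), again with 3 separate groups. Mrps7, a protein of the head of the small subunit (chr11:115603925-115608036, plus strand), was at 53.2 and 47.9 CPM in WT, 37.1 and 34.2 in AAB and 29.2 and 26.4 in BBA, a log2 fold change of 0.87 (SE 0.11, edgeR adjusted p = 0.00162). Mrps12, which lines the decoding centre, was at 25.7 and 26.7 CPM in WT, 19.5 and 16.2 in AAB and 15.5 and 16.2 in BBA (log2 fold change 0.72, SE 0.14, edgeR adjusted p = 0.00653). AAB and BBA were not separate for Mrps12. Mrps5, at the mRNA entry, was not a DEG (41.3 and 33.3 CPM in WT, 35.1 and 23.4 in BBA, log2 fold change 0.36, SE 0.20, edgeR adjusted p = 0.188).

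The S18 paralogs did not move as one. Mrps18c, the other paralog in the small subunit, was at 26.9 and 17.5 CPM in WT and 18.1 and 14.4 in BBA, and its groups overlapped (log2 fold change 0.46, SE 0.22, edgeR adjusted p = 0.137). Mrps18a, which sits in the large subunit, was at 21.9 and 22.1 CPM in WT, 17.7 and 17.2 in AAB and 18.1 and 16.7 in BBA (log2 fold change 0.34, SE 0.12, edgeR adjusted p = 0.0619). The difference between paralogs was not itself tested.

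Among large subunit members, DEGs were 9 of 30 of bacterial type and 3 of 20 particular to mitochondria. Mrpl12, the stalk protein that recruits translation factors (chr11:120484613-120489065, plus strand), was at 77.9 and 65.8 CPM in WT, 51.3 and 48.3 in AAB and 34.97 and 33.3 in BBA. It had 3 separate groups and a log2 fold change against BBA of 1.08 (SE 0.11, edgeR adjusted p = 7.68e-04). Mrpl10, which anchors that stalk, was at 60.5 and 64.6 CPM in WT, 64.8 and 69.0 in AAB and 59.4 and 58.5 in BBA (log2 fold change 0.09, SE 0.09, edgeR adjusted p = 0.468). Mrpl11, at the stalk base, had 27.1 and 23.1 CPM in WT and 17.4 and 17.1 in BBA, which passed by p but not by fold (log2 fold change 0.54, SE 0.13, edgeR adjusted p = 0.0162). Mrpl23, at the exit of the peptide tunnel, was at 54.5 and 46.7 CPM in WT, 40.3 and 32.9 in AAB and 26.6 and 26.9 in BBA (log2 fold change 0.92, SE 0.14, edgeR adjusted p = 0.00256). Mrpl3, near the peptidyl transferase centre, also passed by p alone (49.9 and 45.6 CPM in WT, 37.8 and 36.0 in BBA, log2 fold change 0.37, edgeR adjusted p = 0.0316). Mrpl45, which tethers the ribosome to the inner membrane, was at 29.1 and 31.3 CPM in WT and 27.8 and 27.7 in BBA (log2 fold change 0.12, SE 0.11, edgeR adjusted p = 0.414). Mrpl27 ran the other way, at 17.8 and 15.8 CPM in WT, 18.3 and 18.1 in AAB and 23.6 and 21.4 in BBA (log2 fold change -0.42, SE 0.13, edgeR adjusted p = 0.0421). Mrps36, which belongs to neither subunit, was at 23.3 and 18.7 CPM in WT and 20.9 and 17.6 in BBA (log2 fold change 0.13, SE 0.16, edgeR adjusted p = 0.538).

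**Figure D2:**
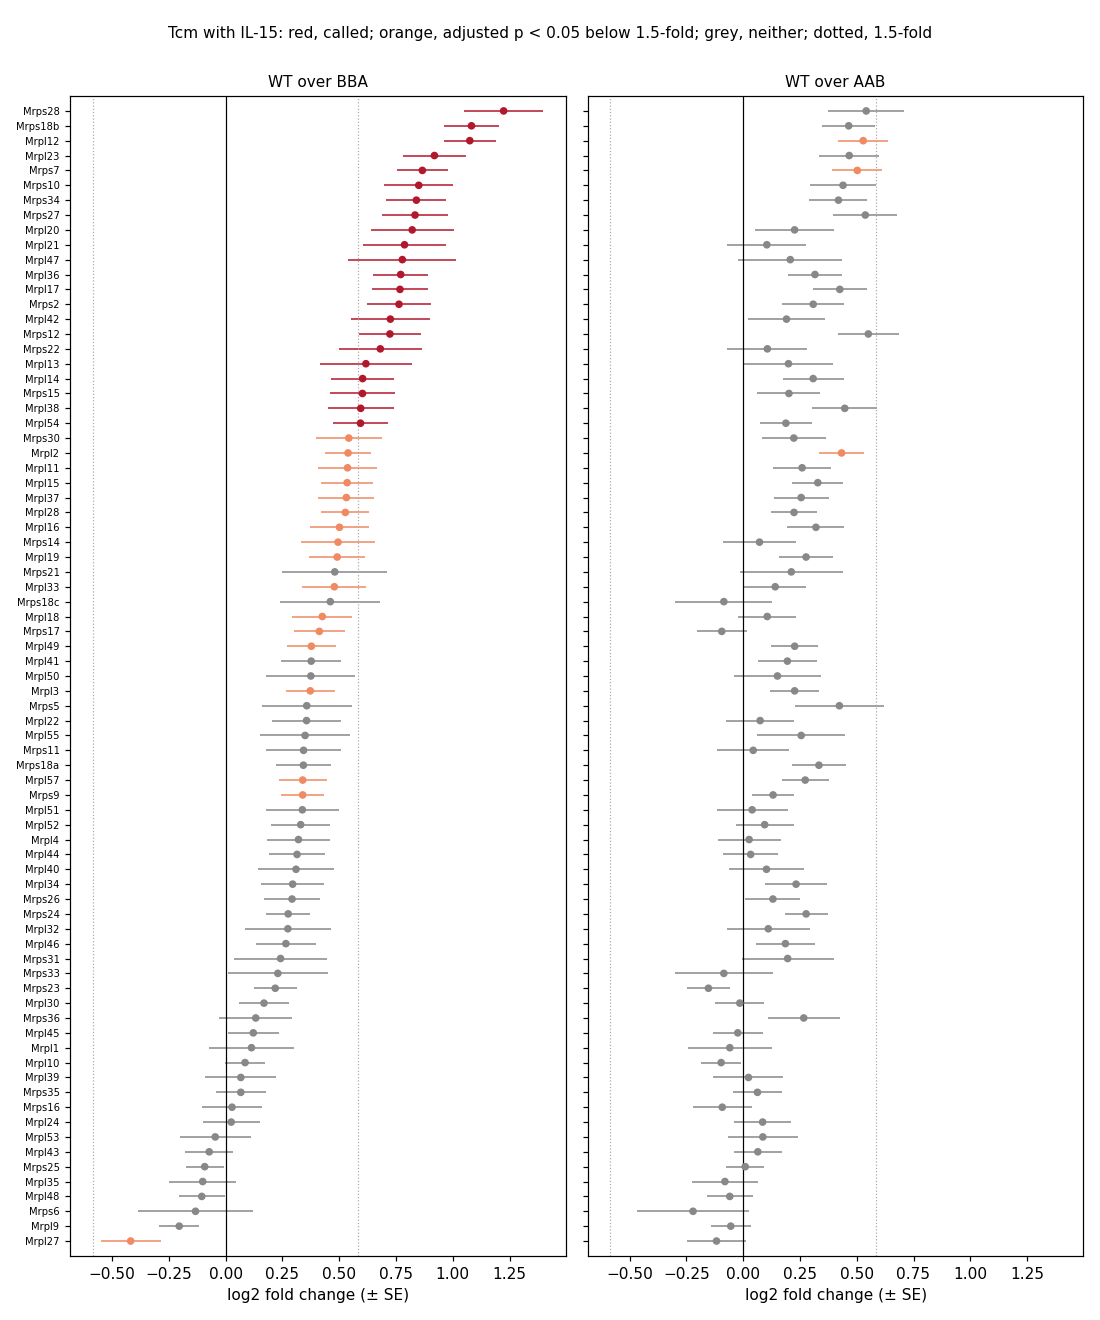
Log2 fold change (x axis, points, with bars for the SE) of each of the 77 members (y axis) in Tcm with IL-15, WT over BBA on the left and WT over AAB on the right, with DEGs in red, members past the adjusted p alone in orange and the rest in grey. On the left 69 points are right of 0, from Mrps28 at 1.22 down, and Mrpl27 is lowest at -0.42, whereas on the right 0 points are red.

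**Figure D3:**
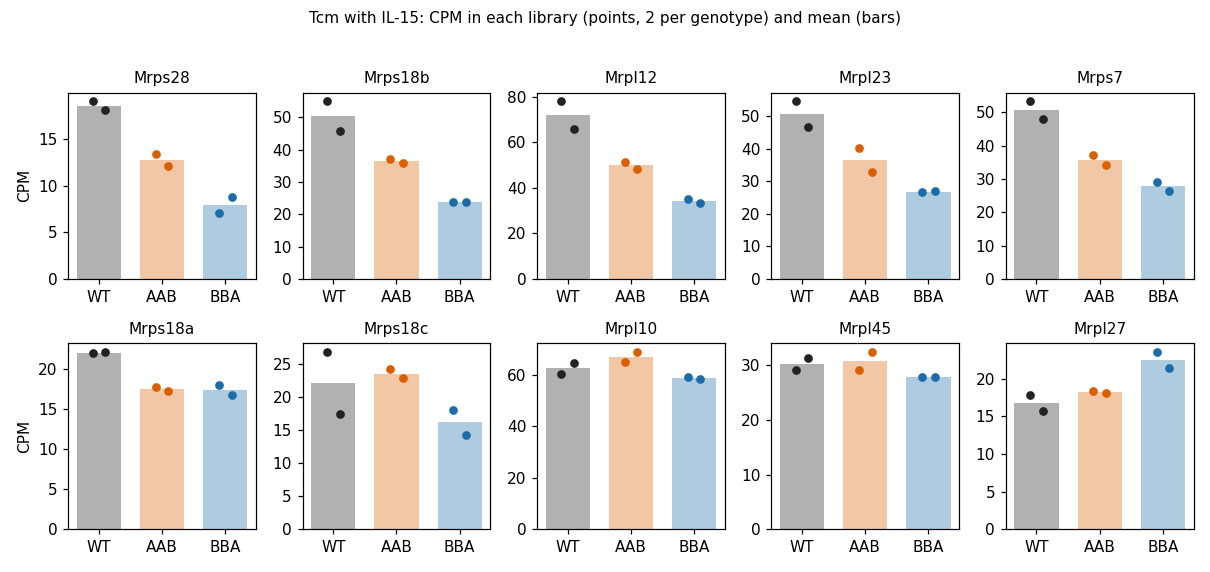
CPM (y axis, from 0) of 10 members in the 6 Tcm libraries with IL-15, with points for libraries and bars for group means. The upper row holds the 5 DEGs with the largest difference, each with WT above AAB and AAB above BBA, and the lower row holds members that were not DEGs, among them Mrpl10 and Mrpl45, and Mrpl27, which is highest in BBA.

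WT over AAB had 0 member DEGs in Tcm with IL-15 by edgeR, against a background of 4.29% in either direction, and 0 by DESeq2. At an unadjusted p under 0.05 there were 18 of 77 members, all higher in WT, and 2484 of all 9944 genes in either direction. Log2 fold changes were positive for 63 members with a median of 0.19. By adjusted p alone 3 members were higher in WT (4.35% of all genes), namely Mrpl12 (log2 fold change 0.53, SE 0.11, edgeR adjusted p = 0.036), Mrps7 (0.50, SE 0.11, edgeR adjusted p = 0.0421) and Mrpl2 (0.43, SE 0.10, edgeR adjusted p = 0.0445). AAB over BBA, which sets a single Stat5b allele against a single Stat5a allele, had 1 member DEG, Mrps18b (log2 fold change 0.62, SE 0.12, edgeR adjusted p = 0.0296), against 3.15% of all genes higher in AAB. Mrpl12 (0.55, SE 0.11, edgeR adjusted p = 0.0334) and Mrps17 (0.51, SE 0.11, edgeR adjusted p = 0.0396) passed by adjusted p alone, so 3 members did, against 5.22% of all genes. Log2 fold changes of AAB over BBA were positive for 66 members with a median of 0.22. These 3 comparisons share libraries, so they are not separate tests of one another. The genes that passed by p alone were named after their values were seen, as were Mrpl27 and Mrps36. Mrps18b lost its call in AAB over BBA when any of the 4 AAB and BBA libraries was left out.

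In both WT libraries 56 members were above both BBA libraries, against 34.3% of all genes tested, and 4 were below both, against 37.1%. For 26 members every WT library was above every AAB library and every AAB library above every BBA library, against 15.2% of all genes. Of the 22 DEGs, 12 kept the call whichever of the 6 libraries was left out (Mrpl12, Mrpl17, Mrpl23, Mrpl36, Mrps2, Mrps7, Mrps10, Mrps12, Mrps18b, Mrps27, Mrps28 and Mrps34). The median over members was 0.32 without WT replicate 1, 0.35 without BBA replicate 2 and 0.50 without WT replicate 2. With plain library totals in place of TMM, 17 of the 22 remained and the median was 0.31 against -0.09 over all genes. Of the 17 DEGs with a promoter window, 8 held letters of NRF1, ETS or YY1, as did 21 of the 51 other members with a window, and GAS letters were in 2 and 4.

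Related lists were examined in the same comparison of WT over BBA, in which 11.8% of all genes tested were DEGs higher in WT. That share is the background for the counts in this paragraph and the next. Of 73 nuclear-encoded oxidative phosphorylation subunits tested, 26 were DEGs higher in WT, 72 had a positive log2 fold change and the median was 0.52. The log2 fold changes were largest for Atp5g1 (1.23, SE 0.16, edgeR adjusted p = 0.00176) and Atp5b (0.99, SE 0.09, edgeR adjusted p = 5.04e-04), both subunits of ATP synthase, and Uqcrq (0.95, SE 0.09, edgeR adjusted p = 5.31e-04), of complex III. Cytosolic ribosomal proteins had positive values for all 74 tested, with a median of 0.41, and 6 DEGs, a lower share than among all genes. The largest were Rps2 (1.06, SE 0.09, edgeR adjusted p = 3.66e-04), Rps27l (0.91, SE 0.23, edgeR adjusted p = 0.0173) and Rps12 (0.65, SE 0.12, edgeR adjusted p = 0.00527). The median of the members lay below those of both lists.

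Of 6 mitoribosomal proteins with other names 1 was a DEG, Chchd1 (0.79, SE 0.16, edgeR adjusted p = 0.00887), and their median was 0.42. Assembly and rRNA modification factors had 5 DEGs of 23, all higher in WT, among them Rnmtl1, an rRNA methyltransferase (1.34, SE 0.25, edgeR adjusted p = 0.00552), Noa1, a GTPase (1.17, SE 0.18, edgeR adjusted p = 0.00268) and Wbscr16 (0.75, SE 0.13, edgeR adjusted p = 0.00406), with a median of 0.23. Translation factors had 1 DEG of 12 tested, Tsfm, the elongation factor Ts (1.02, SE 0.13, edgeR adjusted p = 0.00164), and a median of 0.12. Factors of mitochondrial transcription and RNA stability had 3 DEGs of 9, Lrpprc, which stabilises mitochondrial mRNAs (1.04, SE 0.08, edgeR adjusted p = 3.23e-04), Tefm, an elongation factor (0.79, SE 0.25, edgeR adjusted p = 0.0429) and Elac2, which trims tRNAs (0.70, SE 0.12, edgeR adjusted p = 0.0049), with a median of 0.39. Mitochondrial aminoacyl-tRNA synthetases had 2 DEGs of 20, Yars2 (0.82, SE 0.17, edgeR adjusted p = 0.00933) and Nars2 (0.59, SE 0.15, edgeR adjusted p = 0.0185), with a median of 0.19.

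Other transcripts also differed between genotypes in Tcm with IL-15. Myc, a transcription factor that promotes ribosome production, was at 389 and 445 CPM in WT, 141 and 171 in AAB and 69.4 and 86.5 in BBA, a log2 fold change against BBA of 2.36 (SE 0.15, edgeR adjusted p = 1.3e-04). In Tnv with IL-15 the log2 fold change of Myc against BBA was 2.59, where the members' median was -0.02. It was 1.43 in Tnv with IL-7 and 1.49 in CD4+ Tnv with IL-7, with members' medians of 0.05 and 0.06. In Tem with IL-15 it was 2.68 and in Tcm with IL-7 1.39, with members' medians of 0.21 and 0.30. The summed level of 4 memory markers (Cd44, Il2rb, Eomes and Cxcr3) was 1820 to 1890 CPM in WT, 1690 to 1760 in AAB and 1020 to 1100 in BBA. Cd8a and Cd8b1 summed to 2500 to 2830 CPM in WT, 2660 to 2960 in AAB and 2040 to 2160 in BBA. The 5 B cell markers summed to 94 and 173 CPM in WT, 69.9 and 192 in AAB and 196 and 404 in BBA, and 4 myeloid markers to 8.76 and 6.44, 8.41 and 23, and 48.4 and 24.1. Their part in the differences of the members was not tested. In bulk RNA, fewer cells of a type and less RNA per cell cannot be told apart.

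In Tcm with IL-7, 0 members were DEGs for WT over BBA by edgeR (background 3.09% in either direction). DESeq2 called 7, and its share of all genes was not recorded. An unadjusted p under 0.05 was found for 18 of 77 members, all higher in WT, and for 2501 of all 10099 genes in either direction. Log2 fold changes were positive for 69 members, with a median of 0.30 against 0.00 over all genes, and 42 members were higher in both WT libraries than in both BBA libraries (26.9% of all genes). The 2 smallest p-values belonged to Mrps15, of the small subunit, at 43.6 and 41.1 CPM in WT and 22.3 and 26.4 in BBA (log2 fold change 0.73, SE 0.16, edgeR adjusted p = 0.0613), and Mrpl23, at 72.2 and 49.1 in WT and 31.9 and 29.9 in BBA (0.90, SE 0.21, edgeR adjusted p = 0.065). Mrpl12 was at 95.3 and 61.2 CPM in WT and 44.4 and 34.3 in BBA (0.92, SE 0.24, edgeR adjusted p = 0.0774). Mrps18b, by contrast with its values under IL-15, was at 37.7 and 52.4 in WT and 36.7 and 36.6 in BBA (0.23, SE 0.20, edgeR adjusted p = 0.509), and the difference between cytokines was not tested. Cytosolic ribosomal proteins had a median of 0.74 and oxidative phosphorylation subunits of 0.43 here.

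These values rested on which WT library was used. Without WT replicate 2 the median of WT over BBA was 0.45, and without WT replicate 1 it was 0.16. WT over AAB had 0 member DEGs (0.0594%), 0 by DESeq2 and a median of 0.22. It had 5 members at an unadjusted p under 0.05, all higher in WT, against 1148 of 10099 genes. Its smallest p-values were those of Mrpl12 (log2 fold change 0.67, edgeR adjusted p = 0.388) and Mrpl42 (0.44, edgeR adjusted p = 0.428). Both WT libraries here were male by Xist while 1 AAB and 1 BBA library were female, and the part of sex was not tested.

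In Tcm without cytokine, WT over BBA had 0 member DEGs by edgeR (0.277%) and by DESeq2, 66 positive values and a median of 0.21. An unadjusted p under 0.05 was reached by 7 members, all higher in WT, and by 981 of 10122 genes. Mrps34 (0.36, edgeR adjusted p = 0.4) and Mrps12 (0.52, edgeR adjusted p = 0.401) had the smallest p-values. WT over AAB likewise had 0 (0.0395%), with 1 at an unadjusted p under 0.05 (387 of 10122 genes), 52 positive values and a median of 0.07. Mrps34 (0.33) and Mrps5 (0.32) came first, both at an edgeR adjusted p of 1. Whether the difference between WT and BBA changed with IL-15 in Tcm was tested directly. By edgeR 0 members passed (4.64% of all genes in either direction), and 1 by DESeq2 (Mrpl12), whose share of all genes was not recorded. The unadjusted p was under 0.05 for 10 members, all with a larger difference under IL-15, and for 2143 of 10269 genes. The change in the log2 fold change had a median of 0.17 over members against -0.05 over all genes and was positive for 56. It was 0.77 for Mrpl12 (SE 0.22, edgeR adjusted p = 0.0895) and 0.68 for Mrpl38 (SE 0.22, edgeR adjusted p = 0.138). Leaving out WT Tcm NC replicate 1 raised this median to 0.32 with 2 members called, and leaving out WT Tcm NC replicate 2 brought it to 0.00 with 0 called.

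**Figure D4:**
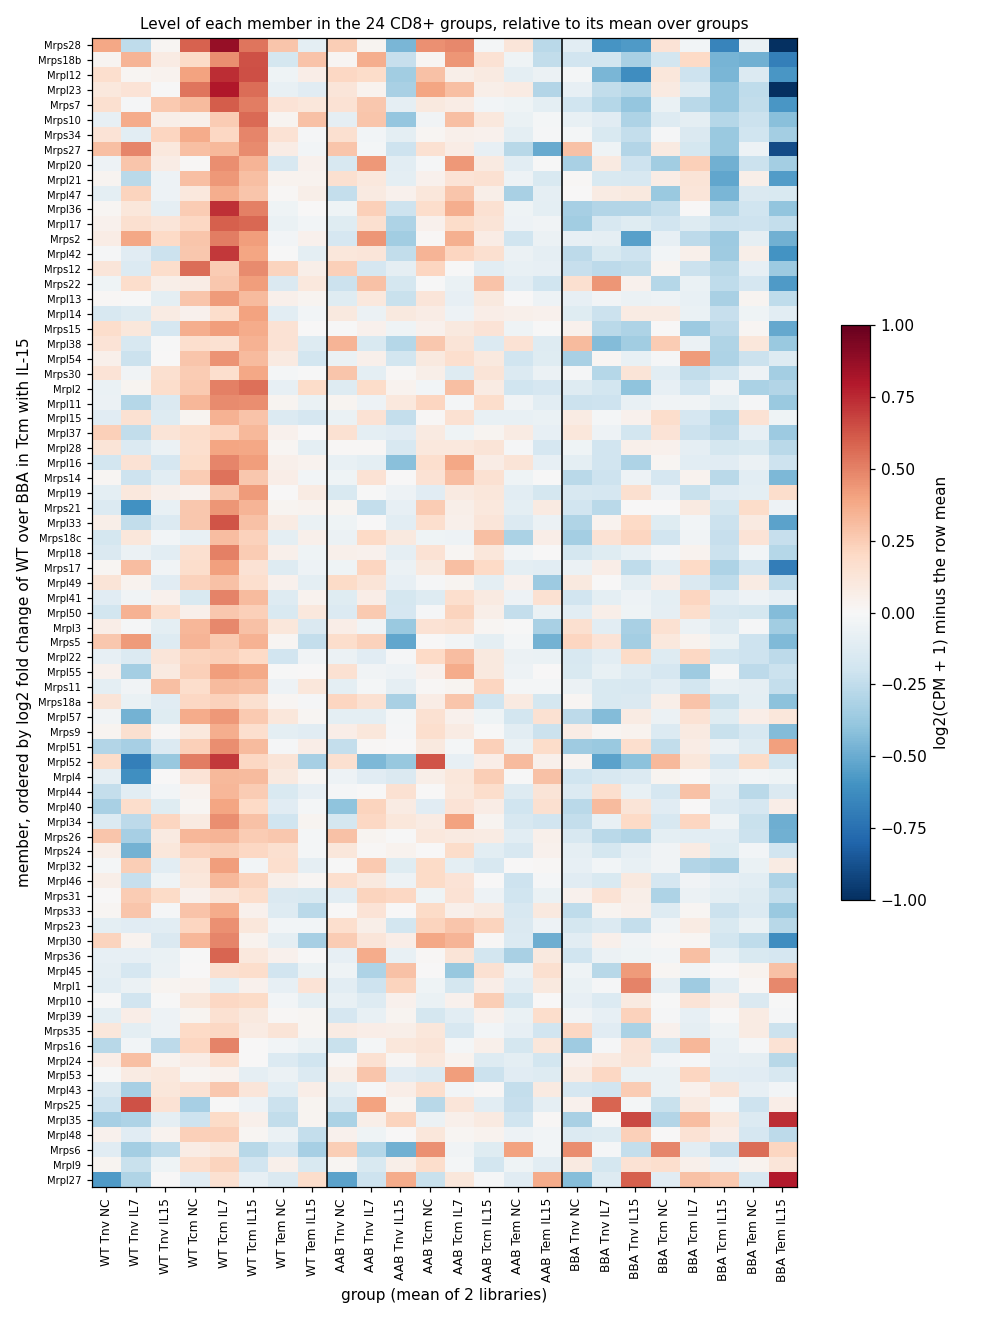
Level of each of the 77 members (rows, ordered by log2 fold change of WT over BBA in Tcm with IL-15) in the 24 CD8+ groups (columns, means of 2 libraries), as log2(CPM + 1) minus the member's mean over groups, with colours ending at -1 and 1. WT Tcm columns are above the mean for most members and BBA Tcm with IL-15 is below it in the upper rows, and Mrpl27 is the lowest row.

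In Tem with IL-15, Mrps18b was the 1 member DEG of WT over BBA, against 1.18% of all genes higher in WT. It was at 41.8 and 36.6 CPM in WT, 28.4 and 24.98 in AAB and 20.4 and 18.7 in BBA, with 3 separate groups (log2 fold change 0.98, SE 0.15, edgeR adjusted p = 0.0472). The call was lost when any 1 of the 6 libraries was left out. Log2 fold changes were positive for 58 members with a median of 0.21, and Mrpl12 was at 52.9 and 42.6 CPM in WT and 26.5 and 33.8 in BBA (0.64, SE 0.21, edgeR adjusted p = 0.198). DESeq2 called 5 members, all higher in WT, and edgeR with the replicate number as a block called 10, with 8 higher and 2 lower. The share of all genes called was not recorded for either, so these counts cannot be set against a background. WT over AAB had 0 (0.0196%), with 1 member at an unadjusted p under 0.05 in each direction (741 of 10183 genes), 0 by DESeq2 and a median of -0.03. Mrps18b (0.51, edgeR adjusted p = 0.519) and Mrpl4 (-0.32, edgeR adjusted p = 0.564) had the smallest p-values. The change of WT over BBA with IL-15 in Tem had 0 member DEGs by edgeR (0% of all genes) and by DESeq2. It had 5 members at an unadjusted p under 0.05 (751 of 10285 genes) and a median of 0.18, led by Mrpl23 (0.80, edgeR adjusted p = 0.498) and Mrps18b (0.72, edgeR adjusted p = 0.572). In Tem NC there were 0 for WT over AAB (0.0197%) and for WT over BBA (0.206%) by edgeR and by DESeq2, with medians of 0.02 and 0.03. Each had 1 member at an unadjusted p under 0.05 in each direction, against 817 and 1099 of 10171 genes. The same members came first in both, which share the WT libraries, namely Mrps6 (log2 fold changes -0.64 and -0.82, edgeR adjusted p = 0.526 and 0.257) and Mrps26 (0.35 and 0.46, edgeR adjusted p = 0.545 and 0.258).

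In CD8+ Tnv the members' medians lay near those of all genes, though with cytokine they depended on single libraries. With IL-15, Mrps2, a protein of the small subunit body, was the 1 member DEG of WT over BBA (2.51% of all genes were higher in WT), at 27.8 and 24.8 CPM in WT, 16.2 and 19.2 in AAB and 15.6 and 15.1 in BBA (log2 fold change 0.74, SE 0.18, edgeR adjusted p = 0.0442). It lost the call without either WT library, one of which was the library with high Cd4, and also without any other library. The median over members was -0.02, and it was 0.17 without BBA replicate 1 and -0.15 without BBA replicate 2. DESeq2 called 2 higher and 1 lower, and its share of all genes was not recorded. WT over AAB (0.726%) and AAB over BBA (0.0706%) had 0 by edgeR and by DESeq2, each with 1 member at an unadjusted p under 0.05 (1389 and 659 of 9913 genes). The smallest p-values were those of Mrps2 (0.56, edgeR adjusted p = 0.204) and Mrpl27 (-0.40, edgeR adjusted p = 0.369) in the first and Mrpl2 (0.43, edgeR adjusted p = 0.63) and Mrpl35 (-0.50, edgeR adjusted p = 0.859) in the second. The change of WT over BBA with IL-15 in Tnv had 0 member DEGs (0.805%) by both tools, 6 at an unadjusted p under 0.05 (1604 of 10060 genes) and a median of -0.09, with Mrpl2 (0.52, edgeR adjusted p = 0.202) and Mrps2 (0.59, edgeR adjusted p = 0.22) first.

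With IL-7, Tnv had 0 member DEGs for WT over AAB (0.256%) and for WT over BBA (2.69%) by edgeR and by DESeq2, with medians of -0.10 and 0.05. There were 1 and 5 members at an unadjusted p under 0.05, against 976 and 1833 of 10157 genes. The median of WT over AAB was 0.08 without AAB replicate 1 and -0.25 without AAB replicate 2. Mrps27 (0.54, edgeR adjusted p = 0.492) and Mrpl4 (-0.54, edgeR adjusted p = 0.532) came first for AAB, and Mrps10 (0.52, edgeR adjusted p = 0.184) and Mrpl12 (0.50, edgeR adjusted p = 0.212) for BBA. Without cytokine there were again 0 for WT over AAB (0.164%) and WT over BBA (2.75%) by both tools, with medians of -0.01 and 0.07. Here 1 and 11 members were at an unadjusted p under 0.05, against 765 and 2211 of 9750 genes. Mrps23 (-0.27, edgeR adjusted p = 0.408) and Mrpl14 (-0.28, edgeR adjusted p = 0.68) came first for AAB, and Mrpl30 (0.32, edgeR adjusted p = 0.0739) and Mrps26 (0.42, edgeR adjusted p = 0.105) for BBA.

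CD4+ Tnv, in which the same genotypes were compared, had 0 member DEGs throughout by edgeR and by DESeq2. Without cytokine, WT over AAB (0.355%) had 4 members at an unadjusted p under 0.05 and WT over BBA (1.13%) had 2, against 809 and 996 of 10154 genes. Their medians were -0.02 and 0.03. Mrps12 had the smallest p in both, at 20.0, 22.3 and 29.2 CPM in WT, 15.2 and 13.2 in AAB and 16.8 and 11.2 in BBA (log2 fold changes 0.75 and 0.79, edgeR adjusted p = 0.368 and 0.209). WT was above both deficient groups, and the comparisons share its libraries. Mrpl22 (0.44, edgeR adjusted p = 0.424) and Mrpl44 (-0.39, edgeR adjusted p = 0.381) came next for AAB and BBA. With IL-7, WT over AAB (0.611%), WT over BBA (5.5%) and AAB over BBA (1.56%) had medians of -0.01, 0.06 and 0.10. They had 6, 11 and 4 members at an unadjusted p under 0.05, against 1076, 2577 and 1302 of 9488 genes. Mrps27 of WT over BBA passed by p but not by fold, at 14.7, 15.5 and 15.6 CPM in WT and 10.6, 11.7 and 11.04 in BBA (0.45, SE 0.12, edgeR adjusted p = 0.0477), and Mrpl15 followed (0.25, edgeR adjusted p = 0.0811). For WT over AAB the first were Mrps14 (-0.38, edgeR adjusted p = 0.19) and Mrps12 (0.46, edgeR adjusted p = 0.224), and for AAB over BBA Mrps14 (0.44, edgeR adjusted p = 0.084) and Mrpl12 (0.41, edgeR adjusted p = 0.151). The change of WT over BBA with IL-7 in CD4+ cells had 0 member DEGs (1.21%), 1 at an unadjusted p under 0.05 (1104 of 10431 genes) and a median of 0.02, with Mrps27 (0.36, edgeR adjusted p = 0.437) and Mrps6 (-0.89, edgeR adjusted p = 0.479) first.

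**Figure D5:**
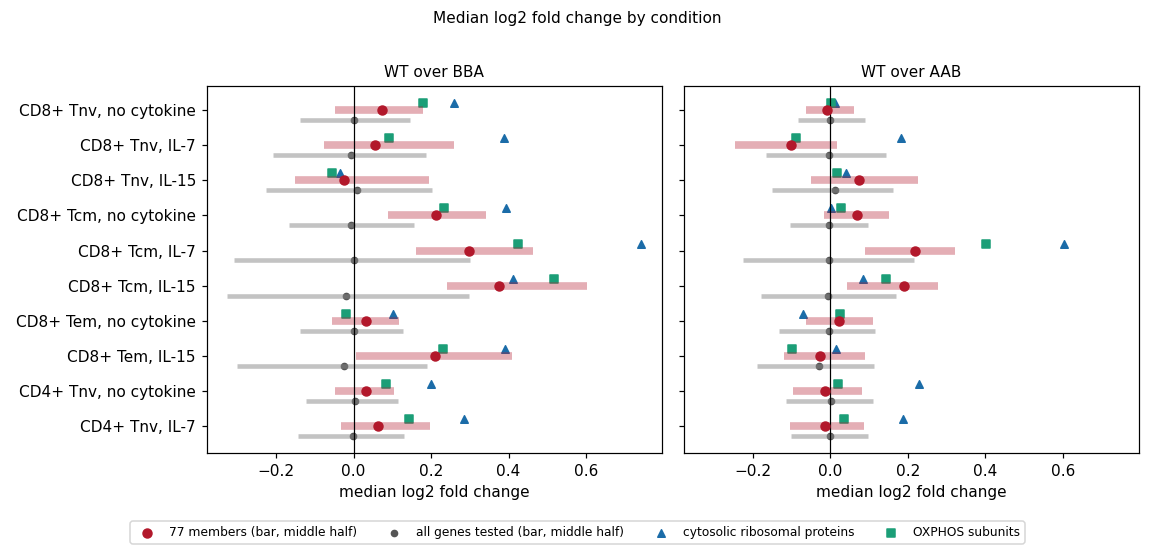
Median log2 fold change (x axis) of WT over BBA on the left and WT over AAB on the right in each condition (y axis), with members in red, all genes tested in grey, cytosolic ribosomal proteins as triangles and oxidative phosphorylation (OXPHOS) subunits as squares, and bars from the first to the last quartile limit for members and all genes. The members' medians of WT over BBA are highest in the 3 Tcm conditions (0.21, 0.30 and 0.38) and in Tem with IL-15 (0.21), and the triangles lie right of the red points in every condition on the left but Tnv with IL-15.

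Few members differed between WT cells with cytokine and without it, a contrast that includes culture. In CD8+ Tnv, IL-7 over NC had 1 member DEG that was higher (9.87% of all genes) and 3 that were lower (10.4%), with a median of -0.01. Mrps25, of the small subunit, was at 100 and 93.5 CPM in NC and 165 and 184 with IL-7 (log2 fold change 0.86, SE 0.09, edgeR adjusted p = 0.00134). Mrpl52, of the large subunit, fell from 41.8 and 37.0 to 21.8 and 20.3 CPM (-0.90, SE 0.17, edgeR adjusted p = 0.00772), Mrps28 from 15.8 and 17.4 to 10.03 and 10.6 (-0.69, SE 0.19, edgeR adjusted p = 0.029) and Mrps26 from 72.7 and 67.3 to 50.9 and 40.5 (-0.61, SE 0.12, edgeR adjusted p = 0.0104). Each of the 4 was separate between groups, Mrps25 kept its call without any 1 library while the others did not, and by Xist these NC libraries were female and the IL-7 libraries male. In CD4+ Tnv, IL-7 over NC had 3 member DEGs, all lower with IL-7 (7.44% of all genes), and a median of -0.08. Mrps6, of the small subunit, went from 11.7, 12.8 and 26.8 CPM in NC to 6.25, 7.57 and 8.11 (-1.22, SE 0.30, edgeR adjusted p = 0.0136), Mrpl52 from 30.4, 34.1 and 27.6 to 16.7, 21.1 and 14.8 (-0.78, SE 0.15, edgeR adjusted p = 0.00413) and Mrps12 from 20.0, 22.3 and 29.2 to 14.9, 15.9 and 15.4 (-0.63, SE 0.15, edgeR adjusted p = 0.0112). NC replicate 3 was the highest for Mrps6 and Mrps12, and without it Mrps6 and Mrpl52 kept and Mrps12 lost the call. Mrps25 was at 136, 122 and 137 CPM in NC and 166, 155 and 183 with IL-7 in these cells, past the adjusted p but not the fold (0.36, SE 0.09, edgeR adjusted p = 0.0114).

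IL-15 over NC in WT Tnv had 1 member DEG (3.37% of all genes were higher), Mrpl27, at 11.6 and 11.8 CPM in NC and 17.1 and 18.6 with IL-15 (0.65, SE 0.14, edgeR adjusted p = 0.0361). DESeq2 called it too, and its call was lost without the library with high Cd4 and without any other of the 6 WT Tnv libraries but IL-15 replicate 1. In WT Tcm, IL-7 over NC had 0 (0.381%) by edgeR and DESeq2, with 3 members at an unadjusted p under 0.05 (1264 of 10768 genes). It had 67 positive values and a median of 0.20, which became 0.00 without WT Tcm IL-7 replicate 1. By Xist the IL-7 libraries were male (2.70 and 2.46 CPM) and the NC libraries female (845 and 1250 CPM), so sex and cytokine cannot be told apart here either. Mrpl41 (0.66, SE 0.18, edgeR adjusted p = 0.21) and Mrps36 (0.58, SE 0.21, edgeR adjusted p = 0.346) came first. IL-15 over NC in WT Tcm likewise had 0 by both tools (0% of all genes by edgeR), with 3 members at an unadjusted p under 0.05 (1311 of 10768 genes) and a median of 0.08. Mrps10 (0.53) and Mrpl41 (0.48) came first, both at an edgeR adjusted p of 0.364. In WT Tem, IL-15 over NC had 0 by both tools (1.64%), with 5 members at an unadjusted p under 0.05 (1796 of 9567 genes) and a median of 0.00, led by Mrps18b (0.50, SE 0.12, edgeR adjusted p = 0.116) and Mrps25 (0.27, edgeR adjusted p = 0.213).

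Between WT cell states without cytokine, Tcm over Tnv had 0 member DEGs by edgeR (2.78%) and DESeq2, and values were positive for 73 members with a median of 0.20. An unadjusted p under 0.05 was seen for 9 members, all higher in Tcm, and for 1428 of 10013 genes. Mrps12 (0.46, SE 0.14, edgeR adjusted p = 0.203) and Mrpl2 (0.34, SE 0.12, edgeR adjusted p = 0.254) came first. Tem over Tcm also had 0 by both tools (1.95%), with 5 at an unadjusted p under 0.05 (1344 of 10013 genes), all lower in Tem. Values were positive for 8 members with a median of -0.18. Mrpl23 (-0.60, SE 0.17, edgeR adjusted p = 0.178) and Mrpl12 (-0.43, SE 0.15, edgeR adjusted p = 0.276) came first. Both comparisons share the Tcm libraries and rested on Tcm NC replicate 1, without which the medians were 0.02 and 0.01.

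In the RV libraries the labelled cell type was checked against its markers before use. Cd8a was at 1.4 to 3.18 CPM and Cd8b1 at 0.305 to 1.57, so these were near 0 in libraries labelled CD8+. The T cell markers Cd3e, Cd3d and Cd3g were at 2.8 to 14.9, 6.09 to 96.5 and 10.4 to 103. In the CD8+ table they were at 330 to 583, 256 to 576 and 283 to 660. Of the natural killer cell markers, Ncr1 was at 1130 to 1460 and Klrb1c at 231 to 593. Klra8 was at most 0.122 and Klra4 was at 0. The CD8 and CD3 values do not match CD8+ T cells, so the comparison below cannot be read as one in such cells. Stat5a was at 60.0 and 61.0 CPM with CA-STAT5A and 8.46 and 3.22 with the empty vector, so the introduced gene was seen. For CA-STAT5A over empty vector, both in IL-2, 0 members were DEGs by edgeR (6.63%) and DESeq2. There was 1 at an unadjusted p under 0.05 (2114 of 10354 genes), with 25 positive values and a median of -0.07. By Xist replicate 1 of both vectors was male (10.97 and 16.5 CPM) and replicate 2 female (974 and 977 CPM), and with this number as a block, added after the data were seen, 0 members were DEGs by edgeR (8.17%), 0 were at an unadjusted p under 0.05 and the median was -0.07. Mrpl45 was at 16.8 and 19.1 CPM with CA-STAT5A and 24.2 and 24.3 without (log2 fold change -0.44, SE 0.15, edgeR adjusted p = 0.167), followed by Mrpl39 (-0.39, SE 0.17, edgeR adjusted p = 0.258). Mrpl12 was at 32.2 and 37.1 CPM with CA-STAT5A and 41.1 and 38.6 without, and Mrps18b at 6.89 and 9.98 against 11.4 and 11.8. Cytosolic ribosomal proteins had a median of -0.44 in this comparison, with 2 DEGs, Rps9 (-0.68, SE 0.15, edgeR adjusted p = 0.0431) and Rps19 (-0.64, SE 0.13, edgeR adjusted p = 0.0341).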

How the data were processed

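Libraries of 50 bp single-end reads from poly(A)+ RNA were aligned with TopHat2 and counted per gene with HTSeq by the authors, who deposited whole-number counts per gene. The genome is mm10 in the published methods and mm9 in the submitters' processing notes. The annotation and the strand setting are not given in the sources used here. Coordinates printed here are those of GRCm38 (GENCODE vM21 for genes, RefSeq for promoters), since the count tables hold none. All columns of counts were mapped to a sample by their labels (unmapped: 0). The 5 summary rows of the RV counts, 67 to 68.4% of their totals, were removed, and 2 samples whose labels disagree on cytokine entered no comparison. Sample pairs of a group (38) differed by more than sampling noise, with a chi-square per degree of freedom of 5.5 to 93.2.

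In R 4.3.3, genes were filtered per condition at the threshold that maximised the Jaccard similarity of replicates (40.2 to 124 normalised counts, leaving 9488 to 10768 genes), scaled by TMM and tested with edgeR 4.0.16 (quasi-likelihood F test, 2-sided, Benjamini-Hochberg over all genes tested). Genotypes were fitted together within a condition, and cytokine, interaction and cell-state contrasts within WT or WT and BBA libraries. The biological coefficient of variation was 10.8 to 29.5%. A call needed over 1.5-fold and an adjusted p under 0.05. SE is the log2 fold change over the root of F. CPM in the paragraphs on single members in Tcm with IL-15 were scaled over the 6 libraries of that condition, and all other levels over the whole CD8+, CD4+ or RV table. In all 36 comparisons were run, and code was tested on simulated data.

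The members and lists were chosen with earlier results of these data known. Genes were named by rule: up to 5 called per direction, or the 2 with the smallest p where none was called; the S18 paralogs, Mrpl3, Mrpl10, Mrpl11, Mrpl12, Mrpl45, Mrps5 and Mrps12 in the main comparison; the 3 highest and lowest per kb; up to 3 called per direction in other lists; and Stat5a, Stat5b, Cd4, Cd8a and Myc. Outside this rule, Mrpl12 and Mrps18b were also given for Tcm with IL-7 and for RV. Mrpl12 was given for Tem with IL-15 and Mrps25 for CD4+ Tnv with IL-7. Each of these genes had been called in another comparison, and the other preset genes were not all given there. Other exceptions are said in place. Alternatives were other filters, scalings, no fold limit, DESeq2 1.42.0, a replicate block, one fit for all CD8+ groups and leaving out each library. Replicate numbers are shared between genotypes. In CD4+ Tnv with IL-7, the one condition with 3 numbers, same-numbered libraries deviated together (correlations 0.102 to 0.446). All such correlations were over 0.1 in 7 of the 10 conditions and were highest in Tem with IL-15 (0.68 to 0.793). The numbers may therefore be pairs in these conditions. The printed SE and adjusted p come from fits without a block in every condition, these included. Adding the block changed no call of a member in CD4+ Tnv with IL-7, and in Tem with IL-15 it added calls, as given above. One marker list is not reported here.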

Additional observations from a re-analysis of the deposited data

How the results depend on the processing

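Of 247 counts of called members under other settings, 207 stayed within 1.5 times the main count and 40 moved, and of 231 counts with a library left out 199 stayed and 32 moved. The cause of these moves was not tested beyond the settings themselves, which change the genes tested, the scaling, the limits or the libraries. Scaling factors were computed after the filter, so another filter also rescaled the libraries. For DESeq2, most other settings and left-out libraries, the share of all genes called was not recorded. Those counts therefore do not show whether members moved more than other genes.

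For WT over BBA in Tcm with IL-15, 22 members were called in the main test, 39 without the fold limit (38 higher), 40 with edgeR's own filter and 49 without a filter, and 14 to 26 with a library left out. With edgeR's own filter the median was 0.60 against -0.02 over all genes, and without a filter it was 0.63 against -0.46. The higher counts under these 2 settings thus came with a shift of the members' fold changes. Leaving out a library gave medians of 0.32 to 0.50. The genes tested were 9944 in the main test, 15313 with edgeR's own filter and 22914 without a filter. WT over AAB there had 3, 4 and 5 under the same 3 settings, 0 to 1 with a library left out, and medians of 0.29 with edgeR's filter and 0.0689 to 0.26 with a library left out. AAB over BBA had 3 without the fold limit, 9 with edgeR's filter (median 0.35), 16 without a filter, 2 by DESeq2, 4 with the replicate block, 0 in one fit and 0 to 1 with a library left out.

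In Tcm with IL-7, WT over BBA had 1 with edgeR's filter, 12 without a filter, 7 by DESeq2, 14 in one fit and 0 to 17 with a library left out (medians 0.16 to 0.45), and WT over AAB had 2 without a filter, 1 in one fit and 0 to 8 with a library left out. In Tem with IL-15, WT over BBA had 0 with edgeR's filter, 5 by DESeq2, 10 with the replicate block (8 higher and 2 lower), 10 in one fit and 0 with any library left out. In Tnv with IL-15, WT over BBA had 6 with edgeR's filter, 12 without a filter, 3 by DESeq2, 5 with the replicate block, 5 in one fit and 0 to 2 with a library left out. Tnv without cytokine had 0 to 1 for WT over BBA with a library left out. In CD4+ cells without cytokine, leaving out the filter gave 1 for WT over AAB and 2 for WT over BBA, whose median was -0.0085 with plain totals. With IL-7, WT over BBA had 1 without the fold limit and 0 to 1 with a library left out.

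For WT cytokine effects, IL-7 in CD8+ Tnv had 12 without the fold limit, a median of 0.0893 with plain totals and 2 to 4 with a library left out, and IL-15 had 3 without the fold limit, 0 in one fit and 0 to 2 with a library left out. IL-7 in Tcm had 1 in one fit, IL-15 in Tem had 0 to 1 with a library left out, and IL-7 in CD4+ cells had 13 without the fold limit and a median of -0.0349 with plain totals. The change of WT over BBA with IL-15 in Tcm had 5 without a filter, 1 by DESeq2, 4 with the replicate block and 0 to 2 with a library left out. Tcm over Tnv had 0 to 3 with a library left out (medians 0.0217 to 0.36), and Tem over Tcm had 1 without a filter, 1 with the replicate block and 0 to 3 with a library left out (medians -0.33 to 0.0064). CA-STAT5A over empty vector had a median of -0.0943 with plain totals. Plain totals moved the median of all genes by -0.10 (WT over AAB) and -0.12 (WT over BBA) in Tcm with IL-7 and by 0.10 for IL-7 in WT Tnv.

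The replicate block moved no other count of calls by over 1.5 times. Outside CD4+ cells with IL-7 the groups share just 2 numbers, which the labels tie to no animal, litter or day. Correlations of same-numbered deviations there ran from -0.056 in Tcm with IL-7 to 0.793 in Tem with IL-15, so these numbers may be pairs too. In the RV libraries, where 1 title lacks a number, the number matches low or high Xist, and a block on it left 0 calls, as before. In AAB and BBA Tcm with IL-7 the number also matches Xist, while both WT libraries there were low. Depth left every member above the filter, and most groups hold 2 libraries, which limits the precision of each difference.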

Other observations

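One AAB and one BBA CD4+ Tnv library carry a title without cytokine and a treatment label of IL-7, so they were put in no group. Scaled by plain library totals, the mean log2(CPM + 1) over the 77 members was 4.62 in the AAB and 4.68 in the BBA library. On the same scale the 7 CD4+ libraries without cytokine ran from 4.57 to 4.69 and the 8 with IL-7 from 4.44 to 4.64.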
